A study of Mus musculus with 7 samples.

Results

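The miR-17-92 cluster and its paralogs were followed in mouse astrocytoma and normal neocortex. Members were all panel probes that name miR-17, miR-18a, miR-18b, miR-19a, miR-19b, miR-20a, miR-20b, miR-25, miR-92a, miR-93, miR-106a, miR-106b or miR-363, alone or joined in 1 probe. They were 11 of the 566 mouse miRNA probes and cover 13 miRNAs. The probes above the cutoff described below are mmu-miR-106a+mmu-miR-17, mmu-miR-20a+mmu-miR-20b, mmu-miR-19a, mmu-miR-19b, mmu-miR-106b, mmu-miR-93 and mmu-miR-25, and in tumor also mmu-miR-92a. The 4 astrocytoma samples came from transgenic hGFAP-HaV12-Ras mice of the CD1 strain at postnatal days 65, 104, 125 and 134 (tumor 1 to 4), and the 3 neocortex samples, cut from cortical layers II to IV, came from wild-type animals of that strain at postnatal day 60. Tumor 2 and neocortex 2 were female and the other 5 samples male. The transgene puts an activated Ras oncogene under a human GFAP promoter, active in astrocytes and also in neural progenitors. Tumors were dissected as whole tissue and set against gray matter of wild-type mice, so a change within a cell type and a change in the mix of cells cannot be told apart, nor can fewer cells of a type and less RNA per cell. All tumors came from transgenic animals older than the wild-type ones, so the difference between the tissues cannot be told apart from age or genotype. The labels give no litter, so p-values measure the spread between these samples.

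The NanoString nCounter assay counts color-coded probes without amplification. Its deposited values are on a log2 scale, and each sample lists every probe under its own cutoff at 0. That cutoff lay at 3.09 to 3.78 in the tumors and 4.65 to 5.21 in the neocortex samples. Counts could be recovered from the values. Over all miRNA probes they summed to 117603 to 208137 in the tumors and 23552 to 60829 in the neocortex samples. Of the marker miRNAs, the neuronal miR-124 lay at 11.74 to 12 in the tumors and 12.21 to 13.07 in the neocortex samples, so both tissues carried it. It was lower in tumor but not called (log2 difference -0.85, limma Benjamini-Hochberg adjusted p = 0.060). The markers called lower were those of oligodendrocytes. miR-219 lay at 8.47 to 9.68 in the tumors and 11.23 to 11.65 in the neocortex samples (log2 difference -2.19, limma Benjamini-Hochberg adjusted p = 0.0091). miR-338-3p lay at 9.28 to 10.53 in the tumors and 11.76 to 12.11 in the neocortex samples (log2 difference -2.08, adjusted p = 0.0098 in limma). Their part in the member values was not tested. On the positive-control probes neither was called, at -0.48 and -0.37, nor with the replicate block (adjusted p = 0.12 and 0.080 in limma).

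The miR-17-92 transcript is a polycistron, cut into several mature miRNAs, whose transcription is driven by MYC and E2F factors. Mammalian genomes carry a copy on the X chromosome, miR-106a-363, and a shorter one, miR-106b-25, inside Mcm7, which encodes a subunit of the replicative helicase. Their miRNAs restrain inhibitors of the cell cycle and of survival signaling, such as Cdkn1a and Bcl2l11, and in the developing brain the cluster promotes the expansion of neural progenitors.

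The 3 clusters were placed through their hairpins in the RefSeq table of GRCm38.p6. miR-17-92 spans 836 bases at chr14:115043671-115044506 on the plus strand, with 6 hairpins. miR-106a-363 spans 875 bases at chrX:52741693-52742567 on the minus strand, also with 6. miR-106b-25 spans 498 bases at chr5:138165321-138165818 on the minus strand, with 3 hairpins, and lies within Mcm7.

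All 13 mature sequences were found in the RefSeq table, and they are shown because the probes and the grouping follow from them. Capitals mark the seed, bases 2 to 8 from the 5′ end, which pairs with target mRNAs.
Those with the miR-17 seed are the first 6.
miR-17-5p: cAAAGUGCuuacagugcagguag
miR-106a-5p: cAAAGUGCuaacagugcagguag
miR-20a-5p: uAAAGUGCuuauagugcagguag
miR-20b-5p: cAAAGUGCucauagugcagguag
miR-93-5p: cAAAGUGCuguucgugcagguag
miR-106b-5p: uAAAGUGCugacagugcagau
The miR-18 seed differs from it in the middle.
miR-18a-5p: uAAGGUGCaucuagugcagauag
miR-18b-5p: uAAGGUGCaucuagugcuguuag
The miR-19 seed is shared by 2 miRNAs.
miR-19a-3p: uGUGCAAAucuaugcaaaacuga
miR-19b-3p: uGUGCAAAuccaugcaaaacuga
The last 3 carry the seed of miR-92a and miR-25.
miR-92a-3p: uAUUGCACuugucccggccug
miR-25-3p: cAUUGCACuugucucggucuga
miR-363-3p: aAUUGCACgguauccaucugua

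Sequences this close decide which cluster a probe can report. miR-17 and miR-106a differ at 1 base (U10A, counted from the 5′ end of miR-17-5p) and share 1 probe, as do miR-20a and miR-20b, which differ at 2 (U1C and U10C, from miR-20a-5p). miR-19b and miR-92a have identical copies in miR-17-92 and miR-106a-363. These 4 probes therefore cannot separate both clusters. miR-18a and miR-19a are particular to miR-17-92, miR-18b and miR-363 to miR-106a-363, and miR-106b, miR-93 and miR-25 to miR-106b-25. miR-19a and miR-19b have probes of their own although they too differ at 1 base (U11C, from miR-19a-3p); how far each probe reads its neighbor was not tested.

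In tumor, 7 member probes could be tested, and 4 of them rose: the shared probe of miR-17 and miR-106a, that of miR-20a and miR-20b, miR-19b and miR-93. None fell (0 of 7 in limma, also with no adjustment of p). miR-19a, miR-106b and miR-25 did not pass the test, with log2 differences of 0.97, 0.63 and 0.53. The 7 probes lay above the cutoff in all 7 samples, so none of them was tested only through the group where it was high. Of the 283 miRNA probes tested, 8.13% were called higher and 9.54% lower, a call being an adjusted p (limma, Benjamini-Hochberg) below 0.05. The median log2 difference was 0.97 over the 7 member probes and 0.03 over the 283. In each of the 7, every tumor value lay above every neocortex value, as it did in 13.8% of the 283.

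**Figure D1:**
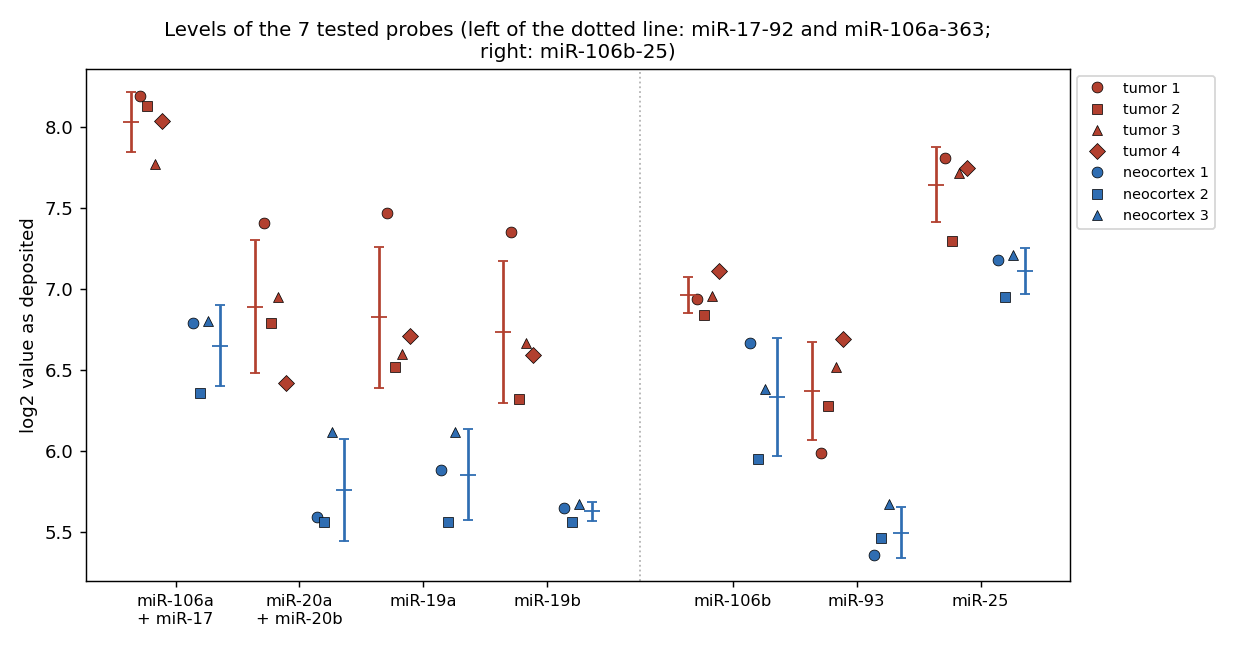
Log2 values as deposited (vertical axis) of the 7 tested member probes (horizontal axis) in each tumor (red, left of each pair) and each neocortex sample (blue, right); bars show mean and SD (n = 4 and 3). Tumor points lie above neocortex points for each probe, and tumor 1 is the highest red point for 5 of the 7 probes but the lowest for miR-93.

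The miR-17 seed group had 4 probes, all tested, of which 3 rose. The shared probe of miR-17 and miR-106a, the miRNAs that give this group its seed and that restrain Cdkn1a, had log2 values of 8.19, 8.13, 7.77 and 8.04 in tumor 1 to 4, against 6.79, 6.36 and 6.80 in neocortex 1 to 3. The lowest tumor value stood almost a full log2 unit above the highest neocortex value. Its log2 difference was 1.38 (SE 0.20, 2.61-fold, limma Benjamini-Hochberg adjusted p = 0.0079), the largest among the 7 member probes.

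The shared probe of miR-20a and miR-20b, made from the same transcripts, had log2 values of 7.41, 6.79, 6.95 and 6.42 in the tumors, against 5.59, 5.56 and 6.12 in the neocortex samples. The groups did not overlap, but tumor 4 came close to neocortex 3. The log2 difference was 1.14 (SE 0.29, limma Benjamini-Hochberg adjusted p = 0.043).

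miR-93, the middle miRNA of the Mcm7 cluster, had log2 values of 5.99, 6.28, 6.52 and 6.69 in the tumors at days 65, 104, 125 and 134, against 5.36, 5.46 and 5.67 in the neocortex samples. In these tumors the order of miR-93 was the order of age; 4 tumors are too few for a correlation. All 3 neocortex values lay at or below those of the negative-control probe NEG_D there (5.42, 5.73 and 5.80), so miR-93 was not above that control in neocortex. The other 7 negative-control probes were at 0 there. With NEG_D taken as background, the miR-93 difference is a lower bound on the deposited scale only. That difference was 0.87 on the log2 scale (SE 0.22, limma Benjamini-Hochberg adjusted p = 0.043).

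miR-106b, from the same Mcm7 transcript, lay at 6.94, 6.84, 6.96 and 7.11 in the tumors, against 6.67, 5.95 and 6.38 in the neocortex samples. The tumors were close together and the neocortex samples further apart, with an SD of 0.11 (n = 4) in tumor and 0.36 (n = 3) in neocortex. Its difference of 0.63 (SE 0.21) gave an adjusted p = 0.097 in limma (Benjamini-Hochberg), 0.031 when neocortex 1 was left out and 0.15 to 0.21 when any other sample was. Without neocortex 2 the difference was 0.44.

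Of the miR-19 seed group, which is the main oncogenic part of the cluster in mouse lymphoma, both probes were tested and miR-19b rose. miR-19b had log2 values of 7.35, 6.32, 6.67 and 6.59 in the tumors, against 5.65, 5.56 and 5.67 in the neocortex samples, a log2 difference of 1.11 (SE 0.27, limma Benjamini-Hochberg adjusted p = 0.039). miR-19a, the only listed probe particular to miR-17-92 itself, had log2 values of 7.47, 6.52, 6.60 and 6.71 in the tumors, against 5.88, 5.56 and 6.12 in the neocortex samples. Tumor 1 stood above the other tumors in both, which are within 0.20 of each other in every tumor. The difference of miR-19a was 0.97 (SE 0.29, limma Benjamini-Hochberg adjusted p = 0.067).

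In the group with the miR-92a and miR-25 seed, which restrains the cell death gene Bcl2l11, 1 of 3 probes was tested and none was called. miR-25 had log2 values of 7.81, 7.30, 7.72 and 7.75 in the tumors, against 7.18, 6.95 and 7.21 in the neocortex samples. Tumor 2, at 7.30, was nearest to the neocortex values. The log2 difference was 0.53 (SE 0.19, limma Benjamini-Hochberg adjusted p = 0.12).

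miR-92a was listed at 4.11, 4.90, 4.10 and 4.44 in the tumors and at 0 in all neocortex samples, and its mean was too low to be tested. The neocortex cutoffs of 4.65, 4.88 and 5.21 stand above 3 of the 4 tumor values, so no fold can be given. It was counted 18, 41, 20 and 41 times in tumor 1 to 4, where a neocortex probe needed 14, 10 and 8 counts in neocortex 1 to 3 to be listed.

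The remaining 3 probes, miR-18a, miR-18b and miR-363, were listed at 0 in all 7 samples. No probe of the miR-18 seed group was therefore measured above the cutoff. Both probes particular to miR-106a-363 were among the 3, and the other values of that cluster come from probes it shares with miR-17-92.

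Counts show how thin the neocortex side of the comparison is. miR-19b was counted 170, 110, 119 and 182 times in tumor 1 to 4, against 28, 16 and 11 times in neocortex 1 to 3. The exact Poisson 95% interval of the 11 counts in neocortex 3 ran from 5.49 to 19.7, and intervals of this kind cover counting error only. miR-93 had at least 66 counts in each tumor, against 23, 15 and 11 in the neocortex samples. The miR-17 and miR-106a probe had 304, 385, 254 and 496 counts in the tumors, against 62, 28 and 24 in the neocortex samples.

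NEG_D, the one negative-control probe listed in the neocortex samples, was close to these levels. It had 14, 21 and 21 counts in tumor 1, 3 and 4, was listed at 0 in tumor 2, and had 24, 18 and 12 counts in neocortex 1, 2 and 3. miR-93 lay at or below NEG_D in 3 of 3 neocortex samples, miR-19b in 2 and miR-19a in 1, as did the shared probe of miR-20a and miR-20b. All 7 tested member probes were more than 1 log2 unit above NEG_D in every tumor in which it was listed. In neocortex miR-25 was that far above it in 3 of 3 samples, and miR-106b and the miR-17 and miR-106a probe in 1. NEG_D was also subtracted from every probe, with 5.21 (the cutoff of neocortex 3) as a common floor for all samples. The shared probe of miR-20a and miR-20b, miR-19a, miR-19b and miR-93 then sat on that floor in 3 of 3 neocortex samples, so their differences of 1.55, 1.47, 1.38 and 0.95 are lower bounds set by the floor and their calls carry no weight. Of the other probes, miR-25 was above the floor in every sample, with a log2 difference of 1.12 (limma Benjamini-Hochberg adjusted p = 0.0054), while miR-106b, at 1.40, was on it in 2 neocortex samples and the miR-17 and miR-106a probe, at 2.27, in 1. Under this setting 18.7% of the 198 probes then tested were called higher. The other 7 negative-control probes were at 0 in every neocortex sample.

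**Figure D2:**
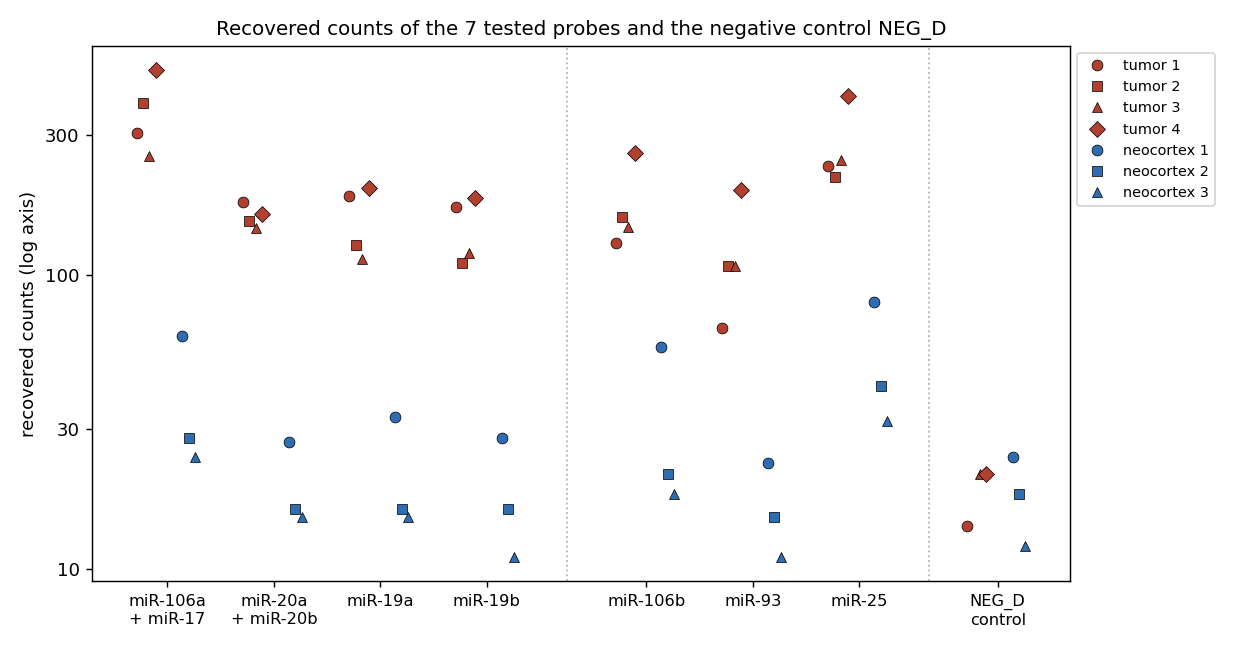
Recovered counts on a log axis of the 7 tested member probes and of the negative control NEG_D in each tumor (red, left) and neocortex sample (blue, right); NEG_D was at 0 in tumor 2 and has no point there. Neocortex counts of miR-93 (11 to 23) and miR-19b (11 to 28) fall among those of NEG_D (12 to 24), while the tumor counts lie well above it.

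As a share of all miRNA counts, which does not depend on the scaling between samples, the 7 probes made up 1.07%, 0.821%, 0.877% and 0.911% in tumor 1 to 4, against 0.511%, 0.416% and 0.535% in neocortex 1 to 3. The 4 probes of miR-17-92 and miR-106a-363 took 0.490% to 0.711% in tumor and 0.205% to 0.276% in neocortex. The 3 probes of miR-106b-25 took 0.315% to 0.414% in tumor and 0.211% to 0.265% in neocortex. These shares are descriptions of the members and carry no test. They are not corrected for background, which weighs more in neocortex. In neocortex 1 to 3 the 7 probes together had 311, 154 and 126 counts, and NEG_D alone had 24, 18 and 12. In tumor 1 to 4 the 7 probes had 1264, 1253, 1128 and 1897 counts, and NEG_D had at most 21.

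By cluster, 3 of the 4 tested probes of miR-17-92 rose, with a median log2 difference of 1.12, and 1 of the 3 probes of miR-106b-25, with a median of 0.63, which is the value of miR-106b. The 3 tested probes of miR-106a-363 are all shared with miR-17-92 and all rose, with a median of 1.14. Whether the clusters changed by different amounts was asked through ratios within each sample, which do not depend on the scaling: each of the 4 probes of miR-17-92 and miR-106a-363 against each of the 3 of miR-106b-25. All 12 ratios were higher on average in tumor, by 0.10 to 0.85 on the log2 scale, and in 3 of the 12 the groups did not overlap. The 12 are built from the same few probes and are not separate observations. That all 12 were higher restates that the smallest difference among the 4 (miR-19a, 0.97) exceeded the largest among the 3 (miR-93, 0.87). Among all pairs of miRNA probes above the cutoff in every sample, 36.0% of ratios did not overlap between tumor and neocortex, so 3 of 12 is no more than the background. Ratios to miR-93 rest on neocortex levels at or below NEG_D and say nothing of a difference between the clusters. The shared probe of miR-20a and miR-20b, miR-19a and miR-19b could not be separated from NEG_D in neocortex either. Their ratios to miR-106b and miR-25 carry that limit too, among them miR-19b to miR-25, whose groups did not overlap.

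The ratio of the miR-17 and miR-106a probe to miR-25 moved most. It was 0.38, 0.83, 0.05 and 0.29 on the log2 scale in tumor 1 to 4, against -0.39, -0.59 and -0.41 in neocortex 1 to 3, a change of 0.85. The ratio of that probe to miR-106b, which has the same seed, was 1.25, 1.29, 0.81 and 0.93 in the tumors, against 0.12, 0.41 and 0.42 in the neocortex samples, a change of 0.75. Each had p = 0.0286 in a 2-sided exact permutation test, which cannot go lower with 4 tumors and 3 neocortex samples, and an adjusted p = 0.30 over the 21 pairs of member probes. No pair passed after adjustment, but an adjusted p below 0.05 would have needed 13 of the 21 pairs at that smallest p, so a difference in a few pairs could not have passed. Whether the clusters or the seed groups differed in their response could not be settled with these samples.

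**Figure D3:**
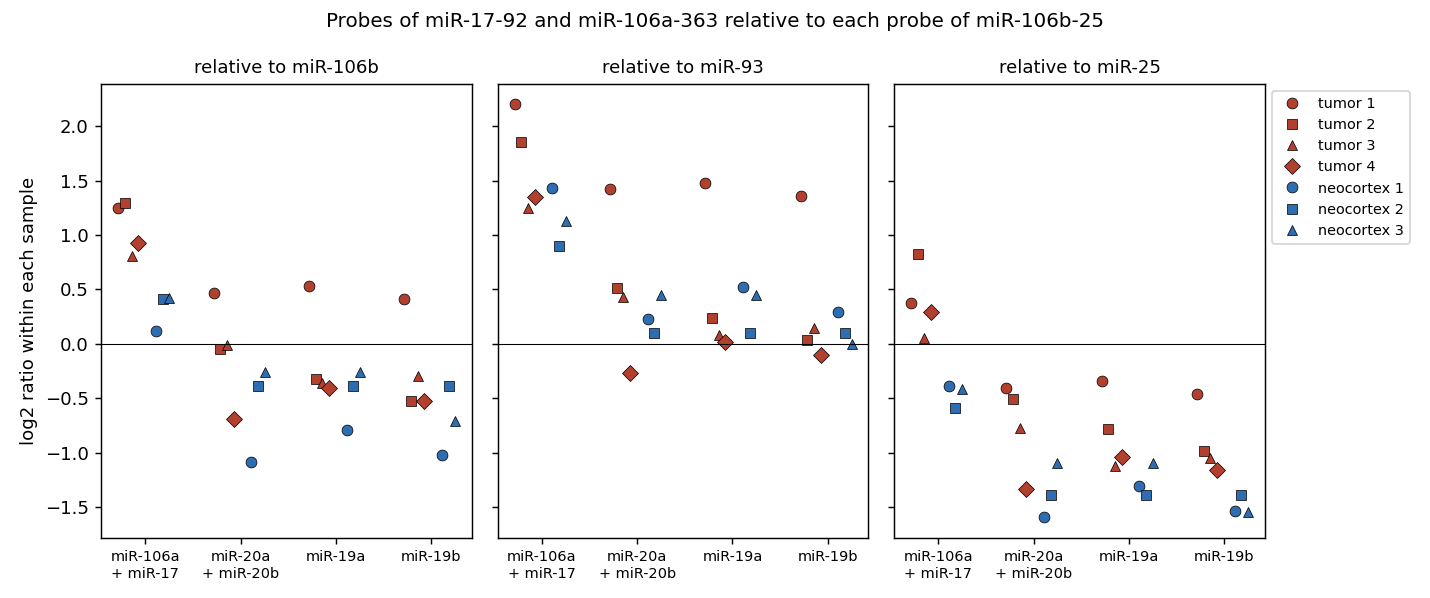
Log2 ratio within each sample of the 4 probes of miR-17-92 and miR-106a-363 to miR-106b, miR-93 and miR-25 (panels), tumors in red on the left and neocortex samples in blue on the right of each pair. The miR-17 and miR-106a probe separates the groups relative to miR-106b and miR-25, and tumor 1 lies above the other tumors for the miR-19a ratios in each panel.

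Tumor 1, the youngest, had the highest values among the 4 tumors of the miR-17 and miR-106a probe, the miR-20a and miR-20b probe, miR-19a, miR-19b and also miR-25, and the lowest of miR-93. Its miR-106b value was between those of the others. Markers of blood and vessel cells were high in the same sample. miR-142-3p, found in blood-derived cells and microglia, was 7.33 in tumor 1 and 6.18 to 6.30 in the other tumors. Of the other markers, miR-223, of myeloid cells, was 7.57 against 5.19 to 6.60, the endothelial miR-126-3p 11.11 against 10.20 to 10.33, and the red blood cell miR-451 and miR-144 were 8.86 against 8.04 to 8.74 and 7.5 against 6.36 to 7.42. In the neocortex samples miR-142-3p was listed at 4.93, 0 and 0, miR-223 lay at 5.46 to 5.53, miR-126-3p at 9.33 to 9.73, miR-451 at 7.34 to 7.95 and miR-144 at 6.14 to 6.46. Of the 5, miR-142-3p was called higher in tumor (limma Benjamini-Hochberg adjusted p = 0.044), a call lost without any single sample other than neocortex 1 (0.092 to 0.11). All 5 were highest in tumor 1, and their part in the member values was not tested. Without tumor 1 the log2 differences of the shared probe of miR-20a and miR-20b, of miR-19a and of miR-19b were 0.96, 0.76 and 0.90, and that of miR-93 was 1.0.

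The direction of the 7 probes did not hold on every absolute scale. On the housekeeping mRNA probes, where the median of all tested miRNAs was -0.93, the miR-17 and miR-106a probe lay at 0.42, the other 3 of its cluster at 0.01 to 0.18, and miR-93, miR-106b and miR-25 at -0.09, -0.33 and -0.43, and none was called. On the positive-control probes, where the median was 1.74, all 7 were called higher, at 2.24 to 3.10, as were 80.6% of all tested. In both cases each of the 7 stood above the median of all tested miRNAs. Such scaling shifts all listed values of a sample by the same amount. It moves the members along with the bulk, so their place above the median is no further support.

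Leaving out single samples left the call of the miR-17 and miR-106a probe in place each time (limma Benjamini-Hochberg adjusted p of 0.0071 to 0.029). The number of member probes called was 3 without tumor 1, 1 without tumor 2, 1 without tumor 3, 2 without tumor 4, 2 without neocortex 1, 1 without neocortex 2 and 2 without neocortex 3. With sex as a covariate the count was 1, the miR-17 and miR-106a probe, with an adjusted p = 0.014 in limma.

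**Figure D4:**
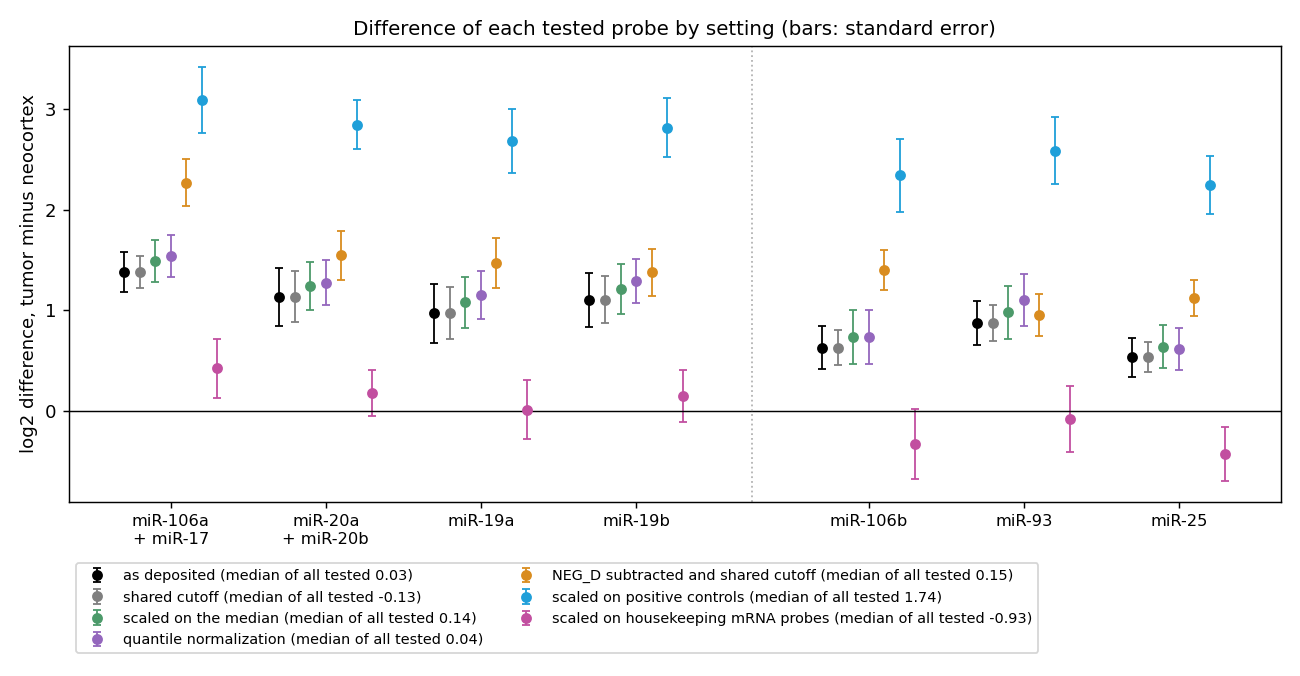
Log2 difference, tumor minus neocortex, with its standard error (vertical axis) for each tested member probe under 7 settings of scaling and low values; the legend gives the median of all tested miRNAs under each. The probes stay above that median in each setting shown, and miR-93, miR-106b and miR-25 lie below 0 when scaled on housekeeping mRNA probes. Scaling on the median, positive controls or housekeeping mRNA probes shifts members and bulk alike, so it does not test their place above the median.

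Other panel miRNAs carry the seed of miR-92a and miR-25 without belonging to the clusters, and none of them was called higher on the deposited scale. They are miR-92b, from a gene of its own, miR-32, and miR-367 of the embryonic stem cell cluster that also holds miR-302.
miR-92b-3p: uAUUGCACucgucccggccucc
miR-32-5p: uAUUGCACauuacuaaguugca
miR-367-3p: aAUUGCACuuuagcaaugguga
miR-92b had log2 values of 6.75, 7.72, 7.59 and 7.79 in the tumors, against 7.99, 6.98 and 7.80 in the neocortex samples. The groups overlapped, with a log2 difference of -0.13 (SE 0.37, limma Benjamini-Hochberg adjusted p = 0.79); on the positive-control probes it was called higher, at 1.58. miR-367 was 3.93 to 4.64 in the tumors, against 4.75 and 5.14 in neocortex 1 and 2 and a listing at 0 in neocortex 3; it did not pass the test (Benjamini-Hochberg adjusted p = 0.54 in limma). miR-32 was 3.09 to 4.36 in the tumors and at 0 in all neocortex samples, all below the neocortex cutoffs, and was not tested.

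Stem cell miRNAs with the miR-17 seed shifted by 1 base, so that bases 2 to 7 equal bases 3 to 8 of miR-17, were also on the panel. Of the 6 matched by sequence, miR-291a-3p, miR-291b-3p, miR-294, miR-295, miR-302b and miR-302d, only miR-291b-3p and miR-302d were abundant enough to be tested.
miR-291b-3p: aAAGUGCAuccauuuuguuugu
miR-302d-3p: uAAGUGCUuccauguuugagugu
In these lines too, capitals mark bases 2 to 8. miR-291b-3p was the one that passed, and it fell, with 5.23, 5.50, 5.14 and 4.89 in the tumors against 6.51, 6.77 and 6.97 in the neocortex samples (log2 difference -1.56, SE 0.21, limma Benjamini-Hochberg adjusted p = 0.0079). miR-302d was listed at 0 in tumor 1, at 3.48 to 4.69 in the other tumors and at 5.36 to 5.53 in the neocortex samples, and did not pass (adjusted p = 0.16 in limma, Benjamini-Hochberg). In neocortex miR-302d lay at or below NEG_D, which had log2 values of 5.42, 5.73 and 5.80 there. On the positive-control probes miR-291b-3p stood at 0.15 and was not called, and under NEG_D subtraction with the common floor it stood at -0.56. It was counted 39, 62, 41 and 56 times in tumor 1 to 4 and 51, 37 and 27 times in neocortex 1 to 3. These counts overlapped between the groups, so its fall depends on the scaling between samples. Of the untested ones, miR-295 and miR-302b were at 0 in all 7 samples. miR-291a-3p was at 3.85, 3.71 and 3.33 in tumor 1, 2 and 4 and at 0 in tumor 3 and all neocortex samples. miR-294 was listed at 3.94 and 3.35 in tumor 1 and 2 and at 5.21 in neocortex 3 only. These tumor values all lay under the neocortex cutoffs of 4.65 to 5.21.

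MYC activates the miR-17-92 cluster and represses a set of other miRNAs in B cells. Of 18 such miRNAs on the panel, 17 were tested, and 2 were higher, 0 lower and 15 not called in limma (4 and 1 before adjustment of p), and their median log2 difference was 0.01. Over all 283 probes tested, 8.13% were called higher and 9.54% lower, and the median was 0.03. The counts of the list are near that background and show nothing particular to it. The 2 were miR-34a, a p53 target, with 6.42, 6.28, 6.70 and 7.10 in the tumors against 5.48, 5.14 and 5.91 in the neocortex samples (log2 difference 1.12, Benjamini-Hochberg adjusted p = 0.044 in limma), and miR-146a, induced by inflammatory signals, with 5.26 to 5.91 in the tumors and 0 in all neocortex samples. With every value under 5.21 raised to that level, miR-146a lost its call (log2 difference 0.51, adjusted p = 0.092 in limma), and miR-34a lost its call without any single sample other than neocortex 3 (adjusted p of 0.063 to 0.12), with the replicate block (0.15) and on the housekeeping probes (log2 difference 0.16, adjusted p = 0.78).

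Over the 7 samples, the probes outside the clusters whose pattern was most like that of the miR-17 and miR-106a probe were miR-22 (Pearson's r = 0.96), miR-669f (0.95), miR-1902 (0.95), miR-21 (0.95) and miR-9 (0.94), among those above the cutoff in all samples. The other 6 tested members had r of 0.83 to 0.89 and ranked 9th to 18th of 196 probes. These points share the difference between the tissues and the scaling of each sample, so the coefficients describe the ordering and carry no test. In neocortex 1 to 3, where NEG_D lay at 5.42, 5.73 and 5.80, miR-669f lay at 5.54, 5.46 and 5.21. It was thus below that control in neocortex 2 and 3. miR-1902, at 6.27, 6.02 and 5.80, was level with it in neocortex 3.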

How the data were processed

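Total RNA isolated with a miRNA kit was measured on a NanoString nCounter mouse miRNA panel (version 1.3), per the labels' protocols and design text. The authors deposited 1 log2 value per probe and sample, and its normalization and background correction are not stated there. Back on the linear scale, the low values were whole multiples of 1 number per sample (100% of the 151 to 264 values checked, up to 60 counts, within 0.02 counts plus rounding), which gave the counts. The log2 values themselves were tested, without a count model.

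Tumor was compared with neocortex by lmFit and eBayes of limma 3.58.1 (R 4.3.3; 2-sided, no covariate), over the 283 of 566 miRNA probes whose mean was at least the median of all means, 2.80; Benjamini-Hochberg adjustment ran over all 283. The fit was tested on simulated data. Ratios were tested by exact permutation over 35 splits in Python 3.11.15. Sequences, hairpin positions and Mcm7 come from the RefSeq tables of GRCm38.p6; plain panel names were taken as the main strand. Named miRNAs are all member probes, probes outside the clusters with the same or a shifted seed, miRNAs repressed by MYC that passed the test, the 5 most alike and the marker miRNAs. miR-302a, listed at 0 in all 7 samples, was left out of the shifted-seed set because its main-strand sequence was missing. The panel has no passenger-strand (*) probes. Members and lists were chosen with earlier results of these data known. Same-numbered samples did not deviate together (correlations of -0.18, 0.25 and 0.13), so numbers were not taken as pairs. Alternatives comprised scaling, filters, a pseudocount of 10, background, trend and robust fit, sex, a replicate block, each sample left out and, added after seeing the data, NEG_D subtraction with the shared cutoff.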

Additional observations from a re-analysis of the deposited data

Results flagged for a closer look

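Of 33 sets of 4 tumor values examined for 1 sample far from the others, 2 stood out, where chance alone marks about 1 in 20. Both are ratios of miR-19a and both are set by tumor 1. The log2 ratio of miR-19a to miR-106b was 0.53 in tumor 1 and -0.32, -0.36 and -0.40 in tumor 2 to 4; the gap to the next tumor was 0.914 of the range. The log2 ratio of miR-19a to miR-93 was 1.48 in tumor 1 and 0.24, 0.08 and 0.02 in tumor 2 to 4, a gap of 0.849 of the range. The cause was not tested.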

How the results depend on the processing

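The 4 calls among the 7 tested member probes depended on scaling and on single samples. The count of member probes called higher was 7 on positive controls, 7 with NEG_D subtracted and the shared cutoff (where 4 of the 7 sat on the floor in all neocortex samples), 0 on housekeeping mRNA probes, 1 with sex as a covariate, 0 with the replicate block and 1 to 3 when 1 sample was left out; it was 4 to 6 under the other alternatives, and the count called lower was 0 in limma under all of them. The replicate block (tumor 4 left out, numbers not shown to pair) gave 5 higher and 0 lower calls over all 283 probes. The median log2 difference of the member probes was 2.68 on positive controls, 0.012 on housekeeping mRNA probes, 1.15 with quantile normalization and 1.40 under NEG_D subtraction with the shared cutoff. On housekeeping mRNA probes miR-93, miR-106b and miR-25 turned to -0.086, -0.33 and -0.43. Outside the clusters, miR-291b-3p turned to 0.15 on positive controls; miR-92b, at -0.13 as deposited, turned to 1.58 on positive controls, 0.015 with quantile normalization and 0.26 under NEG_D subtraction with the shared cutoff, and ran from -0.43 to 0.11 when 1 sample was left out; miR-367, at 0 in neocortex 3, ran from -0.56 to 2.01. Of the 12 ratios between clusters, 3 to 5 did not overlap between groups when 1 sample was left out, and 9 of the 12 instead of all were higher in tumor without tumor 1. The cause was not tested. With 11 to 33 neocortex counts, the levels of the shared miR-20a and miR-20b probe, miR-19a, miR-19b and miR-93 there could not be separated from the negative control NEG_D.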
